A study of Mus musculus with 2 samples.

Results

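Ribosome biogenesis factors are the proteins that build ribosomes without being part of the finished particle. The genes described here are 10 such factors: Rpp38, Gtpbp4, Gnl3l, Mdn1, Rexo2, Mphosph10, Wdr75, Lsg1, Sbds and Nob1. They were taken by name from the authors' gene table, which lists 1285 genes with a YTHDF2 peak, and every peak of the authors' final list over their gene bodies was added. All 10 were found, with 11 peaks in the gene table and 14 over the gene bodies, of 9271 peaks in all. They are 10 of the 11 genes that the authors' deposited table gives for the KEGG pathway of ribosome biogenesis in eukaryotes, so having a peak is how they were chosen and is not a result.

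The cells were wild-type C2C12 myotubes, the multinucleated fibres that this mouse myoblast line forms when it differentiates, with no further treatment. An antibody to YTHDF2 pulled down the protein with its RNA (RNA immunoprecipitation, RIP). The comparison set 1 RIP library against 1 input library, both treated here as 1 batch. An IgG control was not analysed here. With 1 library on each side there is no replicate error, so values are described and none is tested. The peak list gives no expression level, so the myotube label could not be checked by expression: of 15 myotube markers, 3 had a peak in the gene table (Neb, Tnnt1 and Mylpf), and of 5 markers of myoblasts or reserve cells, 1 had (Hgf).

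YTHDF2 is a cytoplasmic protein that reads N6-methyladenosine (m6A) on messenger RNA and brings in the deadenylation machinery. The mark is laid down mostly at adenosines within the letters GGAC or close relatives, often near stop codons and in long internal exons. Ribosome assembly begins in the nucleolus, where ribosomal RNA is transcribed, folded, cut and modified, and ends in the cytoplasm, where the last factors are released. Growing and regenerating muscle depends on it for its protein synthesis capacity.

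Each peak is described by values of the authors' peak caller. The pileup is the height of RIP coverage at the summit, where 1 fragment counts as 0.9. The input background is the local coverage expected there, and the fold enrichment is their ratio, with 1 added to each. The range in parentheses after a fold is its exact 95% Poisson interval, taken from the RIP fragments with the background held fixed, and it covers counting error only, with fragments taken as independent. These are heights at 1 position and not transcript levels. Of all protein-coding genes, 5.81% had a peak in the authors' gene table, and 15.0% had a peak anywhere over the gene body, introns included. The median over all 9271 peaks was 29 fragments and a fold of 4.40.

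In 5 of the 10 transcripts the peak covered the stop codon. The 30 bases from 18 before the stop codon to 9 after it are shown here in the sense direction. These 5 are shown because m6A is often found near stop codons, though m6A was not measured here. Capitals mark the stop codon.
Wdr75, chr1:45823495-45823524, plus strand: agctggctaactgctctgTAGtaggccatg
Rexo2, chr9:48468808-48468837, minus strand: actgagaagcctgtgagtTGAtgccggttc
Gtpbp4, chr13:8973113-8973142, minus strand: ggtaaaaaggacaggagaTAAtgtcctctt
Sbds, chr5:130246324-130246353, minus strand: ggcgatgagaagtttgaaTGAcaccgcccg
Nob1, chr8:107412905-107412934, minus strand: aagtttgtaaagaaaaggTGAcattgcaag
Sequences and positions are those of mm10 (GRCm38), read from the RefSeq copy of that assembly. The Gtpbp4 window holds GGAC in its coding part. The other windows do not.

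Wdr75 and Mphosph10 act in the small-subunit processome, the large nucleolar particle that folds and cuts the 5′ part of pre-ribosomal RNA. Wdr75 is a WD-repeat subunit of it that is needed for transcription of ribosomal RNA. Its peak in the gene table lay in exon 21 of 21 (chromosome 1, 45823427 to 45823615), wholly in the last exon, with its summit 4 nt before the stop codon. The RIP library had 19 fragments there (pileup 17.1) over a background of 2.00, a fold of 6.03 (3.77 to 9.23). Of the 10 genes, 3 had more than 1 peak over the body (Wdr75, Gnl3l and Nob1), where 7.41% of all protein-coding genes had, and 49.4% of the 3287 with any peak over the body. Having a peak was the rule of choice, so nothing is read from the share over all genes. Wdr75 had the most, with 3. Its other peaks were in introns, at 23 fragments and a fold of 7.23 (4.71 to 10.7), and at 14 fragments and 6.53 (3.79 to 10.6). Their summits were 420 and 741 bp from the nearest exon of the principal transcript. The 3 intervals overlap, so the last exon did not stand apart from the introns of this gene.

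Mphosph10 is the scaffold of a small complex that binds the U3 small nucleolar RNA. Its peak lay in coding exon 2 of 11 (chromosome 7, 64389599 to 64389804), 1503 nt before the stop codon. The RIP library had 55 fragments over a background of 24.0, a fold of 2.02 (1.53 to 2.62). This was the lowest fold of the 11 peaks in the gene table, and its −log10 q-value of 2.72 was the nearest to the lowest value in the authors' list, 1.43.

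Rpp38 and Rexo2 act on RNA ends and cuts. Rpp38 is a protein subunit of RNase P and RNase MRP, the enzymes that trim transfer RNA precursors and cut pre-ribosomal RNA. RNase P/MRP is also known to cleave m6A-marked RNAs that YTHDF2 binds. The Rpp38 peak lay in coding sequence of exon 2 of 2 (chromosome 2, 3329233 to 3329613), 442 nt before the stop codon. It held 27 fragments over a background of 7.00, a fold of 3.16 (2.13 to 4.54). The Rpp38 peak is one of 3 among the 11 that hold GGACT, the strongest form of the m6A consensus, 147 nt after the summit; capitals mark it in the window below.
Rpp38, chr2:3329302-3329331, minus strand: gaaagaacaccagGGACTttgctgatgaag

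Rexo2 is an oligoribonuclease of mitochondria and cytosol that KEGG places in the ribosome biogenesis pathway, and its known main task is to degrade very short RNAs. Its peak covered the stop codon in exon 7 of 7 (chromosome 9, 48468677 to 48468926), with the summit 43 nt after the start of that codon. It held 136 fragments over a background of 42.0, a fold of 2.87 (2.41 to 3.39). The peak held no GGAC, like that of Wdr75. Its longest run of A, 9 bases, was the longest in any peak of the 10 genes.

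Gtpbp4, Gnl3l and Mdn1 work on the nuclear precursor of the large subunit. Gtpbp4 (Nog1) is a GTPase that stays on that precursor until the cytoplasm. The Gtpbp4 peak covered the stop codon in exon 17 of 17 (chromosome 13, 8972915 to 8973176), with its summit 40 nt after the start of the stop codon. It held 115 fragments over a background of 45.0, a fold of 2.27 (1.88 to 2.72). This transcript has the longest untranslated tail of the 10. Its peak still lay at the end of the coding sequence, at 23.1% of the 8783 nt of the transcript.

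Gnl3l, a nucleolar GTPase of the nucleostemin family, was the only one of the 10 with 2 peaks in the gene table. Both lay in the 3′ UTR, within exon 16 of 16, with summits 1091 and 1597 nt after the stop codon. The peak nearer the stop codon (chromosome X, 150984903 to 150985101) held 116 fragments over a background of 36.0, a fold of 2.85 (2.36 to 3.41). The farther peak (150984138 to 150984691) held 76 fragments over 27.0, a fold of 2.48 (1.96 to 3.09). The intervals overlap, so the order of these 2 sites was not resolved. The farther peak was 554 bp long, a length reached by 1.77% of all peaks, and 58.3% of it was marked as repeat in the assembly. The nearer one held 0 repeat bases.

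Mdn1 (midasin) is a giant AAA ATPase that pulls assembly factors off the large-subunit precursor. Its gene spans 118 kb with 102 exons, and it held 1 peak (chromosome 4, 32710313 to 32710539). The RIP library had 14 fragments there over a background of 1.19, a fold of 6.21 (3.60 to 10.1). The authors mark the peak as coding sequence, but only 31.7% of it, 72 bp, lay in exon 37, and the summit was 12 bp into the next intron.

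Lsg1 and Sbds act in the cytoplasm. Lsg1 is the GTPase that releases the export adaptor Nmd3 from the large subunit. Its peak (chromosome 16, 30581465 to 30582074) held 22 fragments over a background of 2.00, and its fold of 6.93 (4.47 to 10.3) was the highest of the 11 peaks in the gene table. It was also the longest, at 610 bp, but 19 bp of it, 3.11%, lay in exon 4 of 14. The summit was 97 bp into the intron. The authors mark it as coding sequence and 3′ UTR. In GENCODE M21, 0 of the 9 Lsg1 transcripts place a 3′ UTR under this peak. The exon ends under the Mdn1 and Lsg1 peaks are shown because both peaks run across them: 15 exon bases, then 15 intron bases, with the first 2 intron bases in capitals.
Mdn1, chr4:32710370-32710399, plus strand: gttgtgttggatgagGTgagaattagtgcc
Lsg1, chr16:30582041-30582070, minus strand: gcgccagcttgtgcgGTgagtgttggactt

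Sbds is the protein mutated in Shwachman-Diamond syndrome, and with the GTPase Efl1 it evicts Eif6 from the large subunit so that it can join the small one. The Sbds peak covered the stop codon in exon 5 of 5 (chromosome 5, 130246209 to 130246405), with its summit 41 nt after the start of that codon. It was the tallest of the 10 genes' peaks, with 164 fragments over a background of 53.0, a fold of 2.75 (2.35 to 3.20) and a −log10 q-value of 21.0. Nob1, the endonuclease that makes the final cut at the 3′ end of 18S ribosomal RNA, also had its peak over the stop codon, in exon 9 of 9 (chromosome 8, 107412805 to 107413034). The summit was 60 nt before that codon, with 36 fragments over a background of 12.0, a fold of 2.57 (1.82 to 3.53). A second Nob1 peak, outside the gene table, lay in an intron (107417251 to 107417457) at 22 fragments and a fold of 4.16 (2.68 to 6.20), and 72.9% of it was marked as repeat.

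In Sbds and Nob1 a GGAC lay within 20 nt of the summit, 5 nt before it in Sbds and 13 nt before it in Nob1. These windows are shown with GGAC in capitals because they are the motifs closest to a summit in the set.
Sbds, chr5:130246283-130246312, minus strand: ggagcacgaccgaGGACgcttgttcctcac
Nob1, chr8:107412973-107413002, minus strand: tcctgcaagtccgGGACggcatgttgggag

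**Figure D1:**
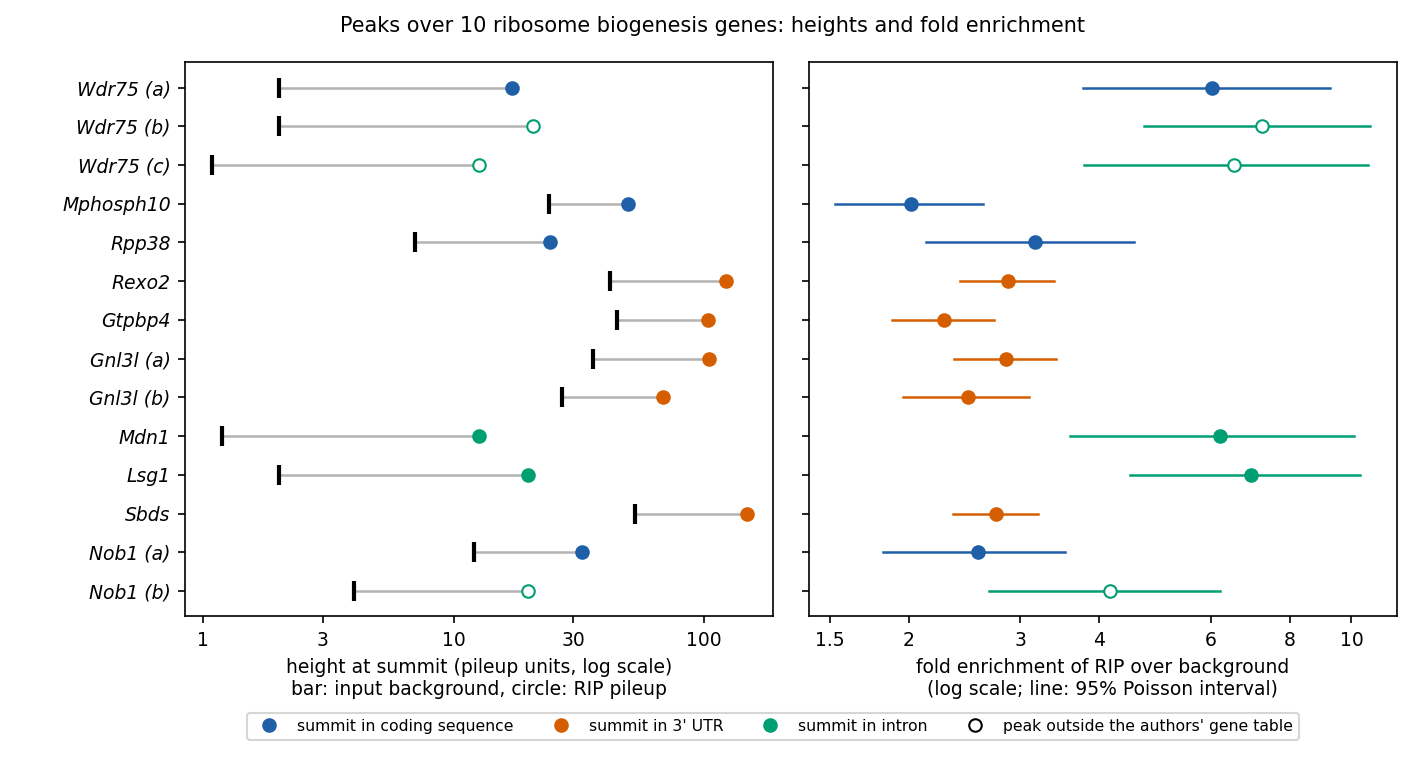
RIP pileup and input background at each summit (left, pileup units, log scale) and fold enrichment with exact 95% Poisson interval (right, log scale) for the 14 peaks over 10 ribosome biogenesis genes; letters separate peaks of 1 gene, and open circles are peaks outside the authors' gene table. Lsg1, Mdn1 and Wdr75 have folds above 6 over backgrounds of 2.00 or less, and Sbds has the highest RIP pileup, 147.6.

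The fold did not follow the RIP height across the 10 genes. Lsg1, Mdn1 and Wdr75 had folds from 6.03 to 6.93 with 14 to 22 fragments, over backgrounds of 2.00 or less; 2.16% of all protein-coding genes, and 37.1% of the 1274 in the table, had a table peak with a fold of 4 or more. As the 10 were taken from the table, nothing is read from the first share. The other 8 peaks in the gene table had folds from 2.02 to 3.16 with 27 to 164 fragments, over backgrounds of 7.00 to 53.0. The intervals of Lsg1, Mdn1 and Wdr75 did not overlap those of the other 8, except that of Rpp38. Among the 1274 protein-coding genes matched to the gene table, Lsg1 ranked 93, Mdn1 140 and Wdr75 152 by highest fold. The other 7 ranked from 720 (Rpp38) to 1130 (Mphosph10), below the median gene at a fold of 3.43 (quartiles 2.51 and 4.77). The median of the 10 genes' highest folds was 2.86.

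Peaks over a low background need a larger fold to be called, so each of the 14 peaks was also set against all peaks whose background was within 20% of its own. Seen this way the order changed. Sbds was above 87.8% of 188 such peaks, whose median fold was 2.17, Rexo2 above 83.3% of 233, Lsg1 above 79.7% of 1179, and the nearer Gnl3l peak above 76.8% of 297. Wdr75 was above 60.6% of 1179 and Mdn1 above 44.7% of 916. Gtpbp4 and the farther Gnl3l peak stood near the middle, at 43.6% and 41.3%. The other gene-table peaks were near the low edge: Rpp38 at 14.4%, Nob1 at 11.0% and Mphosph10 at 6.22%. Of the intron peaks outside the table, those of Wdr75 were above 84.0% of 1179 and 44.8% of 736, and that of Nob1 above 22.7% of 1081. Thus the tall stop-codon peaks of Sbds and Rexo2 were high for their input, although their folds were less than the median of all peaks.

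**Figure D2:**
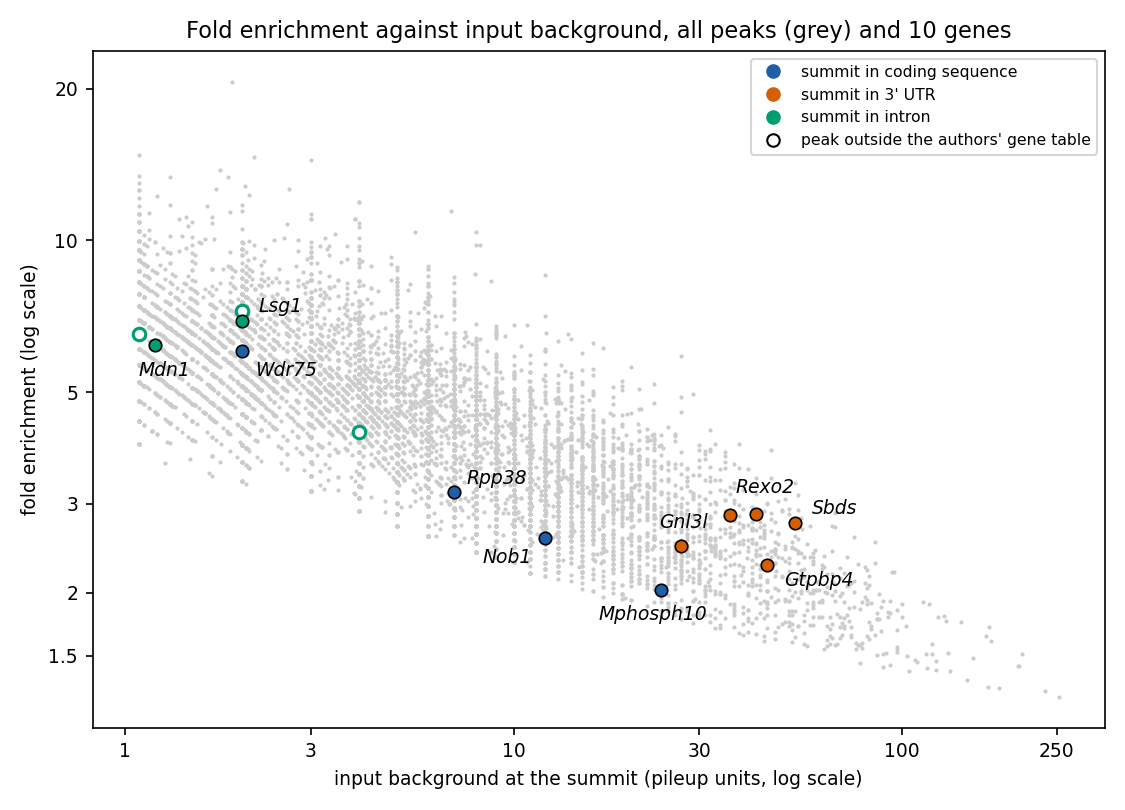
Fold enrichment against input background at the summit (both log scales) for all 9271 peaks (grey dots) and for the 14 peaks over the 10 genes (coloured by the place of the summit; open circles are outside the authors' gene table). Sbds and Rexo2 lie in the upper part of the cloud at their background, and Mphosph10, Nob1 and Rpp38 near its lower edge.

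Most of the gene-table peaks had their summit in the last exon, as did most peaks of the other table genes. By the authors' marks 5 of 11 covered the stop codon, 3 touched coding sequence alone and 2 the 3′ UTR alone. The Lsg1 peak was marked for coding sequence and 3′ UTR. A start codon or a 5′ UTR was marked in 0 of 11. Summits lay in the last exon in 8 of 11 peaks, 72.7% (Wilson 95% interval 43.4 to 90.3). The peaks of the other table genes had 57.1% (54.6 to 59.6), which lies inside that interval. For those genes, here and below, 1548 pairs of peak and gene were counted. The gene table holds 1541 distinct peaks, so some peaks count more than once. Summits lay within 100 nt of the stop codon in 5 of 11, 45.5% (21.3 to 72.0), against 10.3% (8.86 to 11.9) in the others. For the authors' stop-codon mark the shares were 45.5% (21.3 to 72.0) and 15.5% (13.8 to 17.4). These come from the same peaks that chose the genes and are a description.

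In 2 of 11 peaks, those of Mdn1 and Lsg1, the summit was in an intron, and the others lay wholly in exons. Among the peaks of the other table genes 15.6% (13.8 to 17.5) had an intron summit. These 2 peaks have the highest folds of the 11, and with the 3 peaks outside the gene table they make 5 of 14 with intron summits. No other annotated gene lay under any of the 14 peaks.

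**Figure D3:**
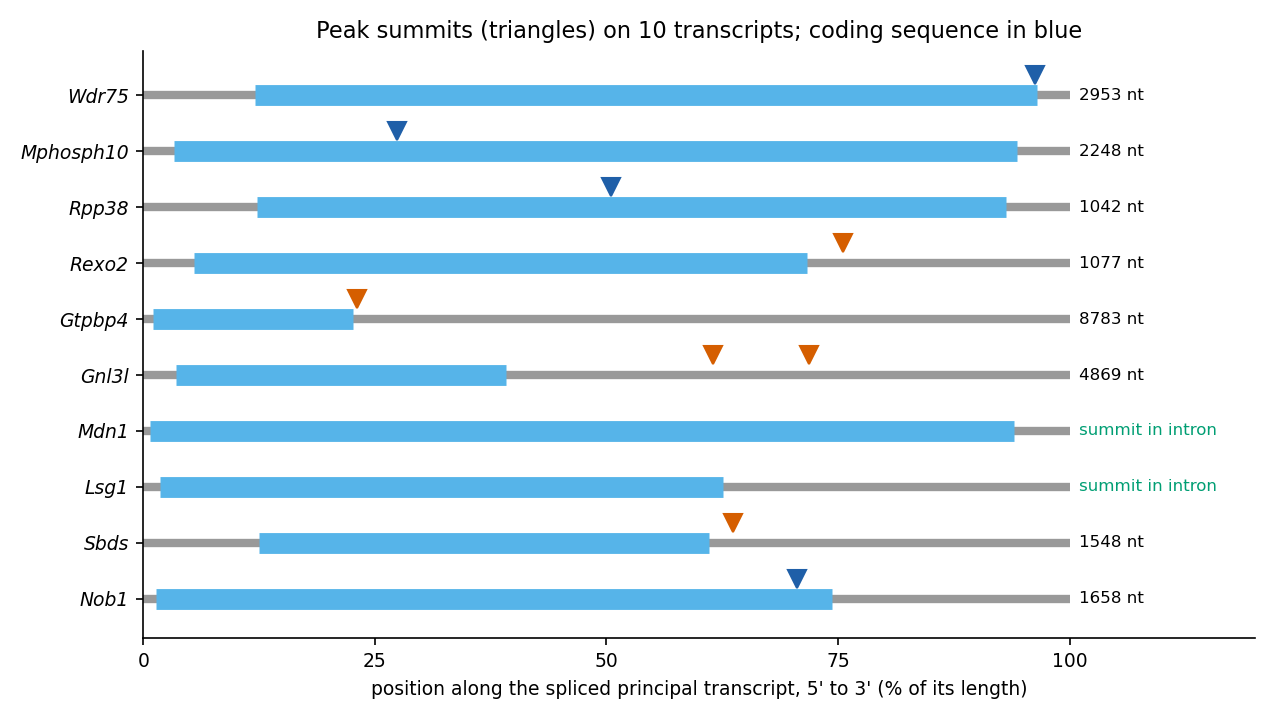
Summits of the gene-table peaks (triangles, coloured by element) along the spliced principal transcript of each gene, as percent of its length from the 5′ to the 3′ end, with coding sequence as the thick blue bar and at the right the transcript length, or a note where the summit is in an intron. In Wdr75, Rexo2, Gtpbp4, Sbds and Nob1 the summit is within 60 nt of the stop codon; Mdn1 and Lsg1 have no triangle because their summits are in introns.

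GGAC, read on the strand of the gene, was present in 9 of 11 gene-table peaks, 81.8% (52.3 to 94.9). It was present in 52.8% (50.4 to 55.3) of the peaks of the other table genes and in 45.8% (44.7 to 46.8) of 8619 peaks over protein-coding genes of 1 strand. Long peaks hold more sites by length alone. In fixed windows of 200 bp on the summit the shares were 72.7% (43.4 to 90.3) and 45.9% (43.5 to 48.4). For whole peaks and for these windows alike, the intervals of the 11 peaks and of the other table genes overlap. GGACT was present in 3 of 11, those of Rpp38, Lsg1 and the farther Gnl3l peak, against 21.5% (19.5 to 23.6) of the others. The polyadenylation signal AATAAA was found in 1 of 11, the farther Gnl3l peak, against 13.1% (11.5 to 14.9). TGTANATA, the element bound by Pumilio proteins, was found in 0 of 11, against 3.23% (2.46 to 4.23). GGACT contains GGAC, so those counts overlap. In the Mdn1 and Lsg1 peaks every GGAC, and the GGACT of Lsg1, lay in intron sequence of the principal transcript. The shares of the other peaks were not split into exon and intron.

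The other genes of the process were read from a list of 176 assembly factors grouped by role, of which 175 were found as protein-coding genes. Of these, 28 had a peak in the authors' gene table, 16.0% (11.3 to 22.2), the 10 genes above included. Without those 10 it was 18 of 165, 10.9% (7.01 to 16.6), where 5.81% of all protein-coding genes had one. Over whole gene bodies it was 40 of 165, 24.2% (18.3 to 31.3), against 15.0%. The list was not matched on expression or length, so nothing particular to ribosome biogenesis is drawn from these shares. By role, and again without the 10, nucleolar assembly of the large subunit had 9 of 45 genes in the table, the small-subunit processome 2 of 38, and the proteins of small nucleolar particles 2 of 13. The remaining roles had 1 each: RNase MRP and trimming of 20 genes, RNA polymerase I transcription of 20, cytoplasmic small-subunit maturation of 15, export and cytoplasmic maturation of the large subunit of 12, and the AAA ATPases, with Spata5, of 2.

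Of the 18 other genes, Esf1, a processome factor, had the highest fold at 7.83 (4.76 to 12.2), from 17 fragments over 1.08. To the digits shown, that background was the lowest of all peaks. Esf1 had 2 peaks in the table, and the other had the higher −log10 q-value, 19.6 against 9.28. Nop58, a core protein of the box C/D particles that guide ribosomal RNA methylation, followed with a fold of 7.14 (4.56 to 10.7). Spata5, the ATPase that recycles assembly factors in the cytoplasm and the KEGG gene not among the 10, had 5.73 (3.53 to 8.87). The large-subunit assembly factors Rpf1, Wdr12 and Nip7 had 5.38 (3.23 to 8.53), 4.78 (2.98 to 7.31) and 4.63 (3.11 to 6.65). Dimt1, which dimethylates 18S ribosomal RNA, had 5.10 (2.91 to 8.44). Efl1, the GTPase that works with Sbds, had 4.53 (2.63 to 7.38), and Exosc10, a nuclear exosome nuclease, 4.49 (2.80 to 6.87). Each of these 9 folds rested on 27 fragments or fewer, and for Nop58, Spata5, Dimt1, Wdr12 and Efl1 the summit was outside the exons of the principal transcript.

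Rpf2, Polr1d and Mak16 had taller peaks than those just given, with summits close to the stop codon. Rpf2, which brings 5S ribosomal RNA to the large subunit, had 70 fragments and a fold of 4.27 (3.34 to 5.37), with its summit 36 nt after the start of the stop codon. Polr1d, a subunit shared by RNA polymerases I and III, had 77 fragments and 3.20 (2.53 to 3.98), 19 nt before the stop codon. Mak16, a large-subunit assembly factor, had 109 fragments and 2.61 (2.15 to 3.14), 10 nt before it. Rrp15, of the same step, stood at 3.02 (1.88 to 4.62), 118 nt after it. Snu13, the protein that nucleates box C/D particles, had 84 fragments and 3.19 (2.55 to 3.94), 367 nt after the stop codon. Nol12, a nucleolar RNA-binding protein, had 3.75 (2.28 to 5.86) at a peak the authors mark as 5′ UTR. The summit was in an intron of the principal transcript, and 0 bases of the peak lay in exons of that transcript. The peak did touch an exon of another annotated Nol12 transcript. The remaining 3 of the 18 had folds of 1.60 to 2.08. Among them Rsl1d1, named after its values were seen, had 156 fragments, the most among the highest-fold table peaks of the 18. Its fold was 2.08 (1.77 to 2.43), with a stop-codon mark and its summit 83 nt before the stop codon. Among the 40 genes outside the 10 with a peak over the body, 22 had none in the table. The highest of these were the helicase Ddx10 at 7.83 (4.76 to 12.2), the 5′ exonuclease Xrn2 with 7 peaks at 7.33 (5.00 to 10.4), the export adaptor Nmd3 with 5 peaks at 7.12 (4.67 to 10.4), the exosome helicase Mtrex with 7 peaks at 6.69 (4.01 to 10.6), and the processome factors Aatf at 6.63 (4.23 to 9.96) and Wdr36 at 5.72 (4.07 to 7.82). These folds rested on 16 (Mtrex) to 37 (Wdr36) fragments. Peaks over Ddx10, Xrn2, Aatf and Wdr36 touched no annotated exon of the gene. In Nmd3 and in Mtrex 1 peak did.

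**Figure D4:**
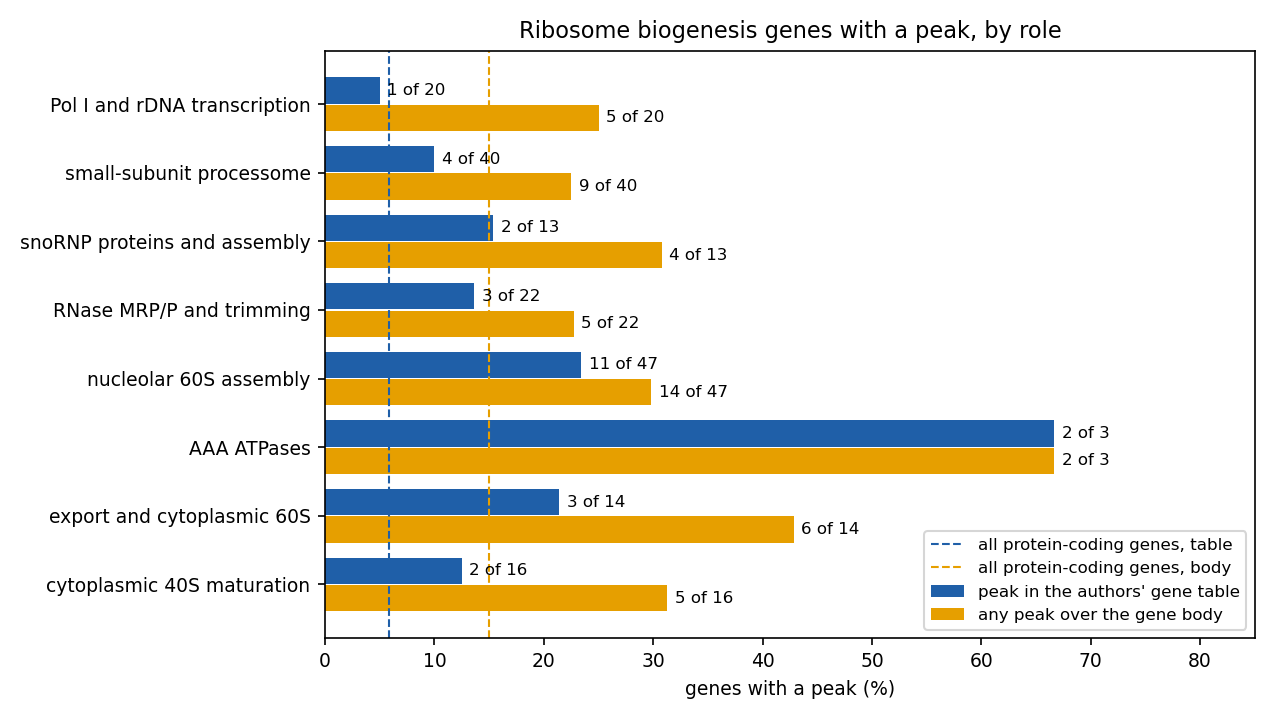
Percent of genes with a peak in the authors' gene table (blue) and with any peak over the gene body (orange) for 175 ribosome biogenesis genes in 8 roles, with counts at the bars; dashed lines give the percent among all protein-coding genes, 5.81 and 15.0. The 10 genes chosen for their peaks are included. Nucleolar assembly of the large subunit, the role with the most list genes, also holds the most in the table, 11 of 47. The AAA ATPases have the highest share, 2 of 3.

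The authors' deposited table of KEGG pathways gave 11 of 70 annotated ribosome biogenesis genes where 4.07 were expected (p = 0.00216 by Fisher's exact test, FDR 0.0531). Their deposited table of Gene Ontology terms gave 14 of 120 genes for ribosome biogenesis where 7.36 were expected (p = 0.0152 by Fisher's exact test, FDR 0.150), with Mphosph10, Gtpbp4, Gnl3l, Lsg1, Sbds and Nob1 among them. For the nucleolus, the authors' deposited table counted 27 of 222 genes, with 13.6 expected by its own reckoning and an FDR of 0.0185 from Fisher's exact test. Mphosph10, Gtpbp4, Gnl3l, Sbds and Nob1 were among them. Ribosomal RNA processing had 9 of 80 genes where 4.91 were expected (p = 0.05575 by Fisher's exact test, FDR 0.293), Mphosph10, Sbds and Nob1 included. Rpp38, Mdn1, Rexo2 and Wdr75 were in the KEGG set and not in that for the Gene Ontology term ribosome biogenesis. Each of these sets counts genes among the 10, which were chosen for having peaks. The authors' enrichment values are therefore no separate support for them.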

How the data were processed

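The series' design text names Bowtie for alignment to mm10 and MACS for peaks; neither version is stated there. The labels' library steps are worded for DNA. Per the file headers, each deposited peak has a pileup signal, a fold enrichment ratio, and −log10 of its p-value and of its q-value. Enrichment tables the authors deposited give counts of annotated and peak genes, the expected number, a p-value and an FDR. Scores are the authors' own and describe peaks within that list.

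Pileups were whole multiples of 0.9 for 100% of peaks (tolerance 1e-06), read as 1 fragment each. The background was computed from pileup and fold, and a Poisson tail on it gave the deposited p-value within 0.01 on the −log10 scale for 100% of peaks. Library depth is unknown. Peaks were placed with GENCODE M21 (GRCm38, the same build) by at least 1 bp overlap with gene bodies, and summits on 1 principal transcript per gene (APPRIS rank, then CCDS, then longest coding sequence). Of 1285 table genes, 1280 were matched, 1268 by symbol and 12 by synonym. Scripts ran in Python 3.11.15 with scipy 1.17.1 and pysam 0.24.0, and intervals and positions were tested on simulated data.

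The genes and the list of 176 were chosen with earlier results of these data known. Named genes were all 10, up to 15 list genes in the table and 6 outside it by fold, and the nearest genes by fold to the highest of the 10 (Tspyl5 and Micu3, both at 6.93). Alternatives covered peak filters, overlap and placement.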

Additional observations from a re-analysis of the deposited data

How the results depend on the processing

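The alternatives changed which peaks count. With a fold enrichment of 4 or more, 6 of the 14 peaks over the gene bodies remained. The median fold of all peaks was 4.40. A peak in the table was kept by 3 of the 10 genes (37.1% of the 1274 table genes do). At that fold 13 of the 175 list genes, the 10 included, had one in place of 28. Without the 10 it was 10 of 165, against 2.16% of all protein-coding genes. With all peaks over gene bodies 50 of the 175 list genes had a peak, 28.6%, the 10 again included. Without them it was 40 of 165, 24.2%, where 15.0% of all protein-coding genes had one. The highest fold of Nob1 was 4.16 when its intron peak was counted, against 2.57. These shifts follow from how each alternative is built. At a q-value of 1e-05 or less 10 of the 14 peaks and 7 of the 10 genes remained. Of the 1274 table genes 966 passed this cut, which is 4.40% of all protein-coding genes. As the 10 were taken from the table, nothing is read from that last share. The shares of all 9271 peaks that pass the fold cut or the q-value cut are not given here, so nothing is read from the peak counts. The median highest fold was 3.02 over gene bodies and 2.80 for the 8 genes with an exon summit. No paired analysis was possible because each group has 1 library. The folds at low background rest on few fragments, 14 in the Mdn1 peak, and have the widest intervals; the effect of depth was not tested.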
